A study of Canis lupus familiaris with 6 samples.

Results

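The 10 enzymes described here remove superoxide, peroxides or free haem, or help to recharge enzymes that do. Their transcripts were measured in left ventricular tissue of 6 dogs, with an Affymetrix canine array for each dog. The 10 are GPX3, GPX1, GPX4, SOD1, SOD2, SOD3, CAT, PRDX3, TXNRD2 and HMOX1. They were chosen by name, with the difference of GPX3 between affected and control hearts in view, and every probe set (a group of probes for 1 transcript) whose only gene symbol in the array annotation was 1 of these names was used, without a filter. Probe sets of a gene are lettered a to d here in the order of their names on the array. This gave 19 probe sets of 9 genes among the 42924 probe sets that were not array controls. No probe set carried GPX4 as its only symbol, and GPX4 was not analysed here. All affected dogs were Great Danes with cardiomyopathy (tissue labelled DCM), a female of 9 years (affected 1) and males of 7 years (affected 2 and affected 3). The control dogs were a male Labrador retriever of 12 years (control 1), a female St. Bernard of 10 years (control 2) and a male Greater Swiss Mountain dog of 4 years (control 3). No control was a Great Dane, so breed and disease cannot be told apart, and each group held 3 dogs (n = 3 each for all values below). The labels give the same tissue handling for both groups (frozen in liquid nitrogen) and no treatment.

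Superoxide that leaks from the respiratory chain or is made by oxidases is turned into hydrogen peroxide by superoxide dismutases. Hydrogen peroxide is then removed by catalase, by glutathione peroxidases, which spend glutathione, and by peroxiredoxins, which are recharged by thioredoxin and its reductase. The heart, with its many mitochondria, relies on the mitochondrial members of this chain (SOD2, PRDX3, TXNRD2), while GPX3 and SOD3 are secreted. GPX1, GPX3, GPX4 and TXNRD2 are selenoproteins.

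The deposited log2 values are centred, with the median of the 6 dogs at 0 for every probe set, so a value tells how an array stands against the others and nothing about whether the gene was strongly or weakly expressed. For the same reason the labelled tissue could not be checked by the presence of its markers. Because of that centring, where the groups do not overlap the innermost affected value and the innermost control value are equal with opposite signs. The members were proposed with the affected and control values in view, so their differences are given as a description, with the standard error (SE) of the fit and no p-value. Fewer cells of a type and less RNA per cell cannot be told apart in bulk tissue.

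GPX3, the glutathione peroxidase secreted into plasma, was lower in all 3 affected hearts than in any control in both of its probe sets. In its wider probe set, GPX3 (b), it stood at -0.44, -0.37 and -0.63 in the affected dogs, against 0.37, 1.08 and 1.64 in the controls. In the other, GPX3 (a), it stood at -0.26, -0.33 and -0.09 in the affected dogs, against 0.09, 0.92 and 0.92 in the controls. The affected dogs lay close together and the controls were spread out, with control 1, the Labrador retriever, nearest to the affected dogs both times. Control 3, the highest both times, was also the array with the most probe sets below -1. It had 1683 of them, against 161 to 510 on the other arrays. Above 1 it had 688 probe sets, against 485 to 1029 on the other arrays. The part of these counts in the GPX3 values was not tested. GPX3 (b) averaged -0.48 ± 0.14 in affected and 1.03 ± 0.64 in control hearts (SD), a difference of -1.51 (SE 0.33), or 2.85-fold lower in affected hearts. GPX3 (a) averaged -0.23 ± 0.12 in affected and 0.64 ± 0.48 in control hearts (SD), a difference of -0.87 (SE 0.25), or 1.83-fold lower. Taking the mean of both probe sets per dog, the affected dogs stood at -0.35, -0.35 and -0.36, while the controls stood at 0.23, 1.00 and 1.28. Affected 3 was the highest affected dog in GPX3 (a) and the lowest in GPX3 (b), so this mean evens out differences among the affected dogs. The gap between the groups was 0.74 in GPX3 (b) and 0.19 in GPX3 (a).

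**Figure D1:**
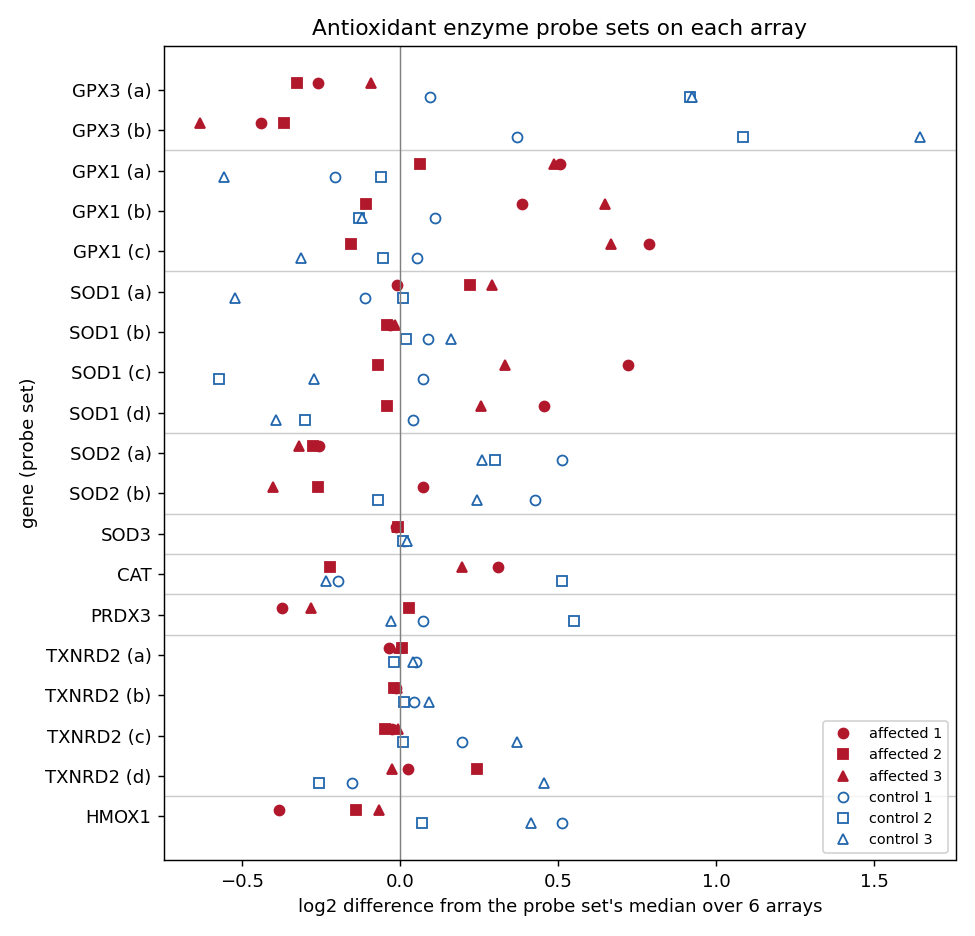
Values of the 19 probe sets of the 9 measured genes on each array, on the centred log2 scale (filled red symbols, 3 affected dogs; open blue symbols, 3 control dogs). Both GPX3 probe sets have the affected dogs left of 0 and the controls right of it, with control 3 reaching 1.64 in GPX3 (b), while SOD3 and TXNRD2 (b) hardly leave 0.

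A lack of overlap is common in these arrays and nothing is read from it for the members. Affected values lay below all control values in 46.9% of all probe sets and above them in 5.37%. Among the member probe sets, 8 of 19 had all affected values lower and 1 of 19 had them all higher. Much of the lower share has the form of the array's own unexpressed tags, 17 control probe sets that match no dog transcript, whose median was -0.028, -0.033 and -0.011 in affected dogs and 0.056, 0.011 and 0.11 in controls. Over the 6 arrays 41.5% of all probe sets followed this tag profile with a correlation over 0.9 (a description over arrays that share 1 normalization), and 84.6% of the probe sets with all affected values lower were among them. Of the 8 such member probe sets, 4 followed the tags in this way, namely SOD3, TXNRD2 (b), TXNRD2 (c) and SOD1 (b). The other 4 were GPX3 (a), GPX3 (b), SOD2 (a) and HMOX1, whose correlations with the tags were 0.72, 0.84, 0.75 and 0.88 in that order. The GPX3 values ranged over 1.25 and 2.28 on the log2 scale, while the tags ranged from -0.059 to 0.33. With each array centred on its median, 5 member probe sets had all affected values lower, where 18.1% of all probe sets did, and both of GPX3 were among the 5. On that scale 4 had all affected values higher, where 12.9% of all probe sets did, namely GPX1 (a), SOD1 (a), SOD1 (d) and SOD3.

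GPX1, the cytosolic glutathione peroxidase of most cells, ran the other way from GPX3, and did so in the hearts of affected 1 and affected 3. GPX1 (a) read 0.50, 0.06 and 0.49 in affected dogs, against -0.21, -0.06 and -0.56 in controls, a difference of 0.63 (SE 0.19) without overlap. GPX1 (c) read 0.79, -0.16 and 0.67 in affected dogs, against 0.05, -0.05 and -0.31 in controls, a difference of 0.54 (SE 0.28). GPX1 (b) differed by 0.36 (SE 0.21). In these last 2 probe sets affected 2 lay among the controls, so that the groups overlapped. Averaged over its 3 probe sets GPX1 was at 0.56, -0.07 and 0.60 in affected dogs and at -0.01, -0.08 and -0.33 in controls. The fibroblast markers (10 of 10 measured) had the same 2 affected dogs on top, with a mean value of 0.86, -0.02 and 1.04 in affected dogs and -0.18, -0.20 and -1.26 in controls, and the spiked hybridisation controls had a median of 0.28, -0.12 and 0.53 in affected dogs and -0.002, 0.007 and -0.04 in controls. The 3' end minus the 5' end of the actin control, which bears on RNA quality, read 0.42, -0.29 and 1.05 in affected dogs. In controls it read -0.46, 0.08 and -0.08. For the GAPDH control it read -0.01, 0.26 and -0.06 in affected dogs and -0.03, 0.30 and -0.19 in controls. The part of the fibroblast markers and of these array controls in the GPX1 values was not tested.

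SOD1, the copper and zinc superoxide dismutase of the cytosol, had 4 probe sets, of which 3 were higher on average in affected hearts. SOD1 (c) stood at 0.72, -0.07 and 0.33 in affected dogs and at 0.07, -0.58 and -0.27 in controls, a difference of 0.59 (SE 0.26). SOD1 (d) differed by 0.44 (SE 0.18) and SOD1 (a) by 0.37 (SE 0.17), and in all 3 the groups overlapped, though with each array centred on its median SOD1 (a) and SOD1 (d) had all affected values above all control values. The fourth, SOD1 (b), differed by -0.12 (SE 0.05), with values of -0.031, -0.043 and -0.017 in affected dogs and 0.087, 0.017 and 0.16 in controls. Its correlation with the unexpressed tags was 1.00 over the 6 arrays. The ending x in its name marks a probe set in which some probes may also bind other transcripts. Affected 2 was again the affected dog nearest to the controls in SOD1 (c) and SOD1 (d), and the highest control there was control 1.

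SOD2, the manganese superoxide dismutase of the mitochondrial matrix, was lower in affected hearts in its probe set SOD2 (a), which read -0.26, -0.28 and -0.32 in affected dogs, against 0.51, 0.30 and 0.26 in controls. The spread within each group was small beside the gap of 0.52 between them, at -0.28 ± 0.03 in affected and 0.36 ± 0.14 in control hearts (SD), and the difference was -0.64 (SE 0.08), or 1.56-fold lower. The second probe set, SOD2 (b), stood at 0.07, -0.26 and -0.40 in affected dogs and at 0.43, -0.07 and 0.24 in controls. It differed by -0.40 (SE 0.18), with affected 1 above control 2. SOD1 and SOD2 thus had differences of opposite sign in 3 of the 4 SOD1 probe sets.

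SOD3, the secreted superoxide dismutase bound to the extracellular matrix, had 1 probe set, whose values varied very little. This probe set, with the same ending x in its name as SOD1 (b), spanned 0.033 over the 6 arrays. The median range over all probe sets was 0.49. Whether it reports the SOD3 transcript cannot be told from these values. It read -0.013, -0.0076 and -0.010 in affected dogs and 0.013, 0.0076 and 0.020 in controls, which followed the unexpressed tags with a correlation of 0.93. The difference of -0.024 (SE 0.037) became 0.050 after quantile normalization, and with each array centred on its median all affected values lay above all control values.

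CAT, the catalase of peroxisomes, was measured by 1 probe set and did not separate the groups. It stood at 0.31, -0.22 and 0.20 in affected dogs and at -0.20, 0.51 and -0.23 in controls, a difference of 0.07 (SE 0.26) that changed sign when affected 1, control 1 or control 3 was left out, or after quantile normalization. The highest CAT value of each group was in its female, affected 1 and control 2. Red blood cells are rich in catalase, and their markers (5 of 10 measured, without the globin genes) averaged 0.04, 0.02 and -0.09 in affected dogs and 0.09, 1.15 and 0.05 in controls, with control 2 on top. Their part in the CAT values was not tested.

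PRDX3, the peroxiredoxin of the mitochondrial matrix, stood at -0.37, 0.03 and -0.28 in affected dogs, against 0.07, 0.55 and -0.03 in controls. Affected 2 lay above control 3, and control 2 stood clearly apart from the other 5 dogs. The difference was -0.41 (SE 0.19) with all dogs and -0.23 without control 2.

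TXNRD2, the mitochondrial thioredoxin reductase that keeps the partner of PRDX3 reduced, had 4 probe sets that disagreed. TXNRD2 (b) and TXNRD2 (c) differed by -0.06 (SE 0.04) and -0.22 (SE 0.10) and followed the unexpressed tags with correlations of 1.00 and 0.99. The second of these read -0.027, -0.050 and -0.008 in affected dogs and 0.19, 0.008 and 0.37 in controls, the same order of dogs as in the tags within the controls. TXNRD2 (a) spanned 0.087 over all arrays and differed by -0.035 (SE 0.043). TXNRD2 (d), with the widest range of the 4 at 0.71, stood at 0.02, 0.24 and -0.02 in affected dogs and at -0.15, -0.26 and 0.46 in controls, a difference of 0.07 (SE 0.21) that changed sign without affected 2, control 1 or control 2 and with age as a covariate. Control 3 alone lay above the affected dogs in that probe set.

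HMOX1, the inducible haem oxygenase that breaks down free haem and is a textbook target of the stress factor NRF2, was lower in affected hearts. It read -0.38, -0.14 and -0.07 in affected dogs, against 0.51, 0.07 and 0.41 in controls, with affected 3 and control 2 nearest to each other. The means were -0.20 ± 0.17 in affected and 0.33 ± 0.23 in control hearts (SD), a difference of -0.53 (SE 0.15), or 1.44-fold lower. Macrophages express HMOX1 strongly, and their markers (12 of 12 measured) averaged 2.28, -0.14 and 0.07 in affected dogs and 1.30, -0.35 and -0.62 in controls. Their part in the HMOX1 values was not tested.

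**Figure D2:**
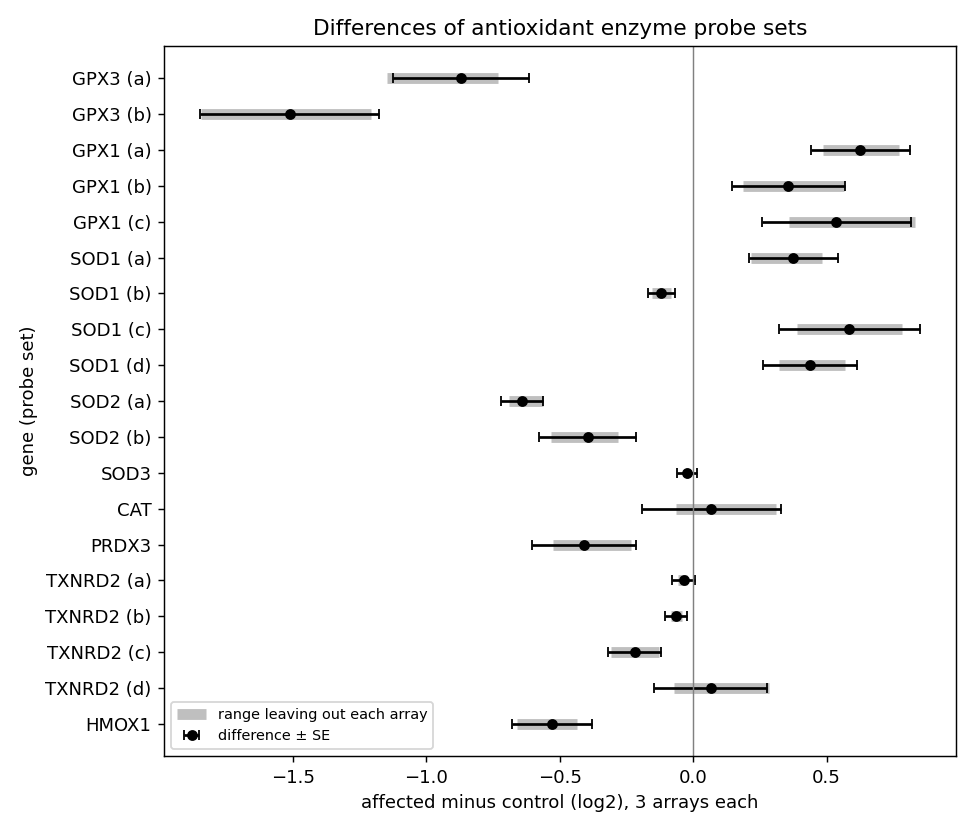
Affected minus control difference of each antioxidant enzyme probe set on the log2 scale (points) with its SE (bars), and the range of the difference when each of the 6 arrays was left out in turn (grey bands). CAT and TXNRD2 (d) cross 0. PRDX3 and SOD2 (b) stay below 0 and GPX1 (b) and GPX1 (c) above it, with groups that overlap. GPX3 (a), GPX3 (b), SOD2 (a) and HMOX1 also stay below 0 and GPX1 (a) above it. In these the groups do not overlap, so leaving out an array cannot change the sign and nothing is read from it.

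Across the 19 probe sets, 11 differences were below 0 and 8 above, with a median of -0.04, against a median of -0.08 over all probe sets. The members therefore did not move one way. GPX3, SOD2, HMOX1 and PRDX3 were lower on average, GPX1 and 3 SOD1 probe sets were higher, and CAT, SOD3 and TXNRD2 gave no stable difference or followed the tags. Probe sets of a gene differed from each other by a root mean square of 0.40 over the 6 arrays for GPX3, where control 3 differed by 0.72 between its probe sets, by 0.19 to 0.25 for GPX1, by 0.21 for SOD2, by 0.17 to 0.45 for SOD1 and by 0.028 to 0.23 for TXNRD2. Among 9 lists of cell type markers, the neutrophil list (6 of 8 measured) had all affected values below all control values. It averaged -0.23, -0.22 and -0.62 in affected dogs and 0.68, 0.21 and 0.68 in controls. The red blood cell list given with CAT did so narrowly, with 0.043 in affected 1 and 0.052 in control 3. The fibroblast list given with GPX1 had all affected values above all control values. Single probe sets over the whole array separated in these ways in 46.9% (lower) and 5.37% (higher). The lists are means over several genes, so these shares are no like background, and nothing is read from the separation. At an unadjusted limma p under 0.05, 11 of 25 fibroblast probe sets were higher and 0 lower. In the neutrophil list 0 of 9 were higher and 3 lower, and in the red blood cell list 0 of 7 and 1. Of all probe sets, 4.53% were higher and 6.32% lower. The part of these lists in the GPX3 values was not tested. Adipocytes also make GPX3, and their markers (9 of 9 measured) averaged 1.47, -0.16 and -0.27 in affected dogs and 0.08, -0.27 and -0.31 in controls, with affected 1 highest, and their part in the GPX3 values was not tested. The mean of the cardiomyocyte markers (15 of 17 measured) stayed between -0.13 and 0.13 on all arrays. It read -0.01, 0.13 and 0.12 in affected dogs and 0.08, -0.09 and -0.13 in controls. Of their 56 probe sets, 7 were higher and 1 lower at an unadjusted limma p under 0.05.

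The values of GPX3 were compared with those of every other gene with a single symbol (14533 genes, without uncharacterised symbols), by the root mean square difference from the wider GPX3 probe set over the 6 arrays. RCC2, a regulator of chromosome condensation, was closest at 0.29, with -0.84, -0.47 and -0.65 in affected dogs and 0.47, 0.99 and 1.09 in controls. The growth factor TGFB3 followed at 0.38, the potassium channel subunit KCNA5 at 0.40, the translation inhibitor EIF4EBP1 at 0.43 and DLC1 at 0.44. The other GPX3 probe set stood at 0.40 by the same measure. The 5 probe sets picked for this likeness had affected values below all control values, with control 3 highest. Other probe sets of TGFB3, KCNA5, EIF4EBP1 and DLC1 were farther from GPX3, up to 0.94, 0.75, 0.56 and 1.11 in that order, and the groups overlapped in the other one of KCNA5 and in some of TGFB3 and DLC1.

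**Figure D3:**
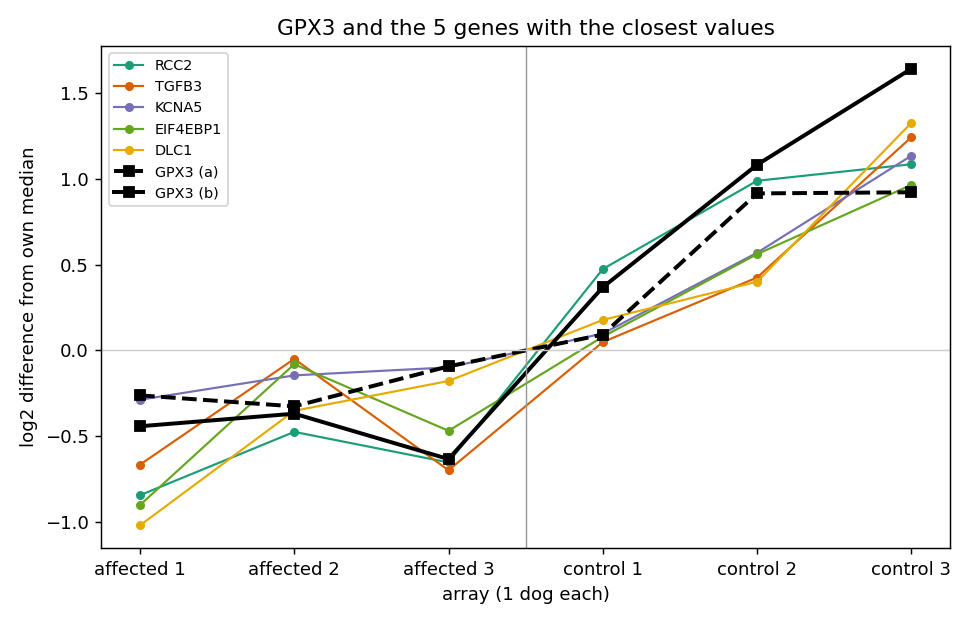
Values of both GPX3 probe sets (black squares) and of the 5 genes with the smallest root mean square difference from GPX3 (b) (coloured points) on the 3 affected and 3 control arrays, on the centred log2 scale; lines only join the values of a probe set. In every line the 3 affected dogs lie below the 3 controls and control 3 is highest. For the 5 genes, picking by closeness to GPX3 (b) favours this order, and nothing is read from it.

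Whether the enzymes around these members differed was asked of 157 related genes in 10 lists, of which 133 genes were measured by 272 probe sets. None passed the adjusted threshold of 0.05 in limma (smallest adjusted p = 0.296), where 0.00233% of all probe sets passed in either direction, namely 1 probe set without a listed symbol that was higher in affected hearts. At an unadjusted p under 0.05, 19 probe sets of 14 genes were higher and 14 probe sets of 11 genes lower in affected hearts, or 6.99% and 5.15%, against 4.53% higher and 6.32% lower of all probe sets. These shares are near the background. The differences below did not pass the adjusted threshold and are given as values with their SE, from the probe set with the smallest p of each gene.

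Selenoproteins and the factors that make them (22 of 24 genes measured, 46 probe sets) had 6 probe sets of 5 genes higher and 0 lower at an unadjusted limma p under 0.05, with a median difference of 0.14. SELENOS, a selenoprotein of the endoplasmic reticulum membrane, stood at 0.19, 0.36 and 0.41 in affected dogs and at -0.19, -0.46 and -0.28 in controls, a difference of 0.63 (SE 0.10), and its second probe set differed by 0.62 (SE 0.13). SECISBP2, which binds the RNA element that directs selenocysteine insertion, differed by 0.37 (SE 0.07) in 1 of its 6 probe sets, while the others ran from -0.26 to 0.13. SELENOF, of the endoplasmic reticulum lumen, differed by 0.46 (SE 0.10). Its other probe sets differed by 0.84 (SE 0.39) and 0.35 (SE 0.18), with overlapping groups. The other genes of these 5, named after their values were seen, were SELENOP, the selenium carrier of plasma, at 0.83 (SE 0.25) and SELENOK at 0.25 (SE 0.06).

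Among the other peroxidases (9 of 11 genes measured, 17 probe sets) 4 probe sets of 2 genes were higher and 0 lower at an unadjusted limma p under 0.05. PRDX6, the peroxiredoxin that spends glutathione, stood at 0.78, 0.10 and 1.03 in affected dogs and at -0.10, -0.47 and -0.36 in controls, a difference of 0.94 (SE 0.27), and 0.61 (SE 0.19) in its other probe set. PRDX5, found in mitochondria and peroxisomes, differed by 0.37 (SE 0.09) and 0.39 (SE 0.13) in its 2 probe sets. In PRDX6 affected 2 was again the affected dog nearest to the controls, as in GPX1.

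Thioredoxins and glutaredoxins (12 of 13 genes, 31 probe sets) had 0 probe sets higher and 2 lower at an unadjusted limma p under 0.05. TXN2, the mitochondrial thioredoxin between TXNRD2 and PRDX3, differed by -0.25 (SE 0.10), with -0.21 in its other probe set. TXNL1, a thioredoxin-like protein of the proteasome, differed by -0.17 (SE 0.05) in 1 probe set and by 0.31 and 0.22 in the others. NNT, which makes NADPH inside mitochondria, differed by -0.41 (SE 0.11), and its other probe sets ran from -1.19 to 0.70.

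The list of NADPH supply and copper chaperones (15 of 18 genes, 31 probe sets) held NNT and had 2 probe sets higher and 3 lower at an unadjusted limma p under 0.05. PGLS, of the pentose phosphate pathway, differed by 1.09 (SE 0.39), and stood at 1.31, -0.01 and 1.04 in affected dogs and at 0.01, -0.35 and -0.57 in controls. ME3, the mitochondrial malic enzyme, differed by 0.57 (SE 0.18), and by 0.15 in its other probe set. PGD, the next enzyme of the pentose phosphate pathway, was named after its values were seen and differed by -0.63 (SE 0.23) in 1 probe set and by 0.51 and 0.15 in the others.

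Glutathione synthesis and recycling (11 of 11 genes, 17 probe sets) had 0 probe sets higher and 2 lower at an unadjusted limma p under 0.05. GCLM, the modifier subunit of the enzyme that starts glutathione synthesis, differed by -0.28 (SE 0.11) in 1 probe set and 0.12 in the other. CHAC2, which degrades glutathione, differed by -0.21 (SE 0.07), with a correlation of 0.99 with the unexpressed tags. Among glutathione transferases (10 of 20 genes, 21 probe sets; 1 probe set higher and 2 lower) MGST2 stood at 0.22, 1.19 and 0.09 in affected dogs and at -1.76, -0.09 and -1.25 in controls, a difference of 1.53 (SE 0.54), and 0.68 in its other probe set. GSTO2 differed by -0.28 (SE 0.10) with a correlation of 1.00 with the tags.

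The NRF2 list (15 of 17 genes, 26 probe sets) had 2 probe sets higher and 3 lower at an unadjusted limma p under 0.05. KEAP1, which holds NRF2 inactive, stood at 0.21, 0.05 and 0.23 in affected dogs and at -0.05, -0.31 and -0.23 in controls, a difference of 0.36 (SE 0.09). AKR1B1, aldose reductase, differed by -0.75 (SE 0.28) and -0.59 (SE 0.23) in its 2 probe sets, and OSGIN1, a growth inhibitor induced by oxidative stress, by -0.44 (SE 0.15). ME1, the cytosolic malic enzyme, was named after its values were seen and differed by 0.75 (SE 0.29). In a further ME1 probe set the groups overlapped, with a difference of 0.53 (SE 0.31).

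Haem and iron genes (13 of 15, 30 probe sets) had 0 probe sets higher and 1 lower at an unadjusted limma p under 0.05, FECH, the last enzyme of haem synthesis, at -0.55 (SE 0.16), and its other 4 probe sets ran from -0.44 to -0.23. Superoxide sources (17 of 19 genes, 32 probe sets) had 2 probe sets higher and 0 lower, both of POR, the electron donor of cytochromes P450, at 0.71 (SE 0.23) and 0.23 (SE 0.09), and its remaining probe set differed by 0.02. The repair list (9 of 9 genes, 21 probe sets) had 2 probe sets higher and 1 lower, all of MSRA, the methionine sulfoxide reductase, at 0.45 (SE 0.15) and 0.45 (SE 0.17) against -0.37 (SE 0.14), where the last followed the tags with a correlation of 0.99.

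**Figure D4:**
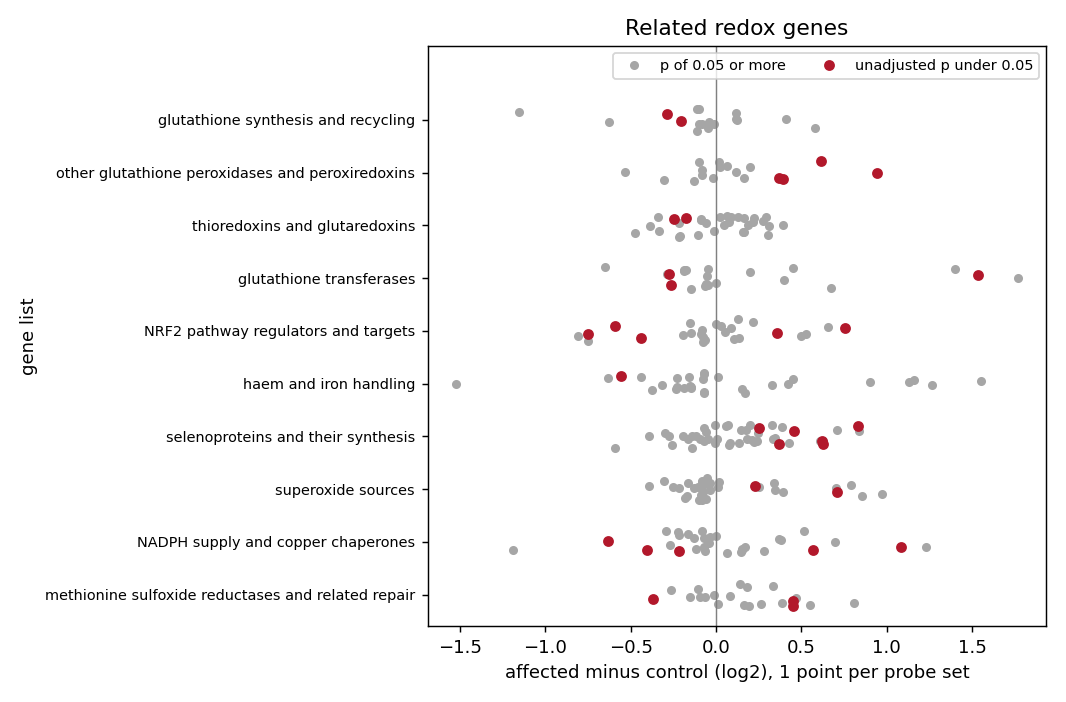
Affected minus control difference (log2) of the 272 probe sets of 133 related genes by list, 1 point per probe set, in red where the unadjusted limma p was under 0.05 (vertical position within a list has no meaning). Red points lie on both sides of 0. Selenoproteins (6 probe sets), the other peroxidases (4) and superoxide sources (2) have them on the right alone. Glutathione synthesis and recycling (2), thioredoxins and glutaredoxins (2) and haem and iron handling (1) have them on the left alone. Of all probe sets on the array, 4.53% were higher and 6.32% lower at this limma threshold.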

How the data were processed

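The deposited values are on a log2 scale, inferred from their range and from GCRMA and MAS5, which the submitters' processing notes name with no role, order or version; in the deposited table the median of each of 43035 probe sets over the 6 arrays was 0 (largest absolute median 5e-07). The background correction and any genome build are not given in the sources used here. The fit held 42924 probe sets, without the 111 array controls and without a filter; per the array annotation 29254 of them had 1 symbol, 439 had several and 13231 were not listed. Differences are affected minus control from limma 3.58.1 (R 4.3.3; group as the only term, two-sided, no variance trend, 4 residual and 1.13 prior degrees of freedom), adjusted by Benjamini-Hochberg over all 42924 probe sets with a threshold of 0.05. The limma fit was tested on simulated data with planted differences and independent noise, without a shift shared by many probe sets. Precision is limited by 3 arrays per group, each taken as 1 dog because the labels speak of biological replicates. Values are given for every member, for up to 3 genes of each related list with the smallest p if under 0.05, and for the 5 genes closest to GPX3. Members and lists were chosen with earlier results of these data known. Alternatives were a filter on range (the narrowest 40% of probe sets dropped), 2 scalings (quantile normalization, median centring), sex, age, a replicate block, a variance prior trended on range, and leaving out each array.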

Additional observations from a re-analysis of the deposited data

How the results depend on the processing

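The mean GPX3 difference of -1.19 ran from -1.34 after quantile normalization to -1.12 after median centring, was -1.30 with age as a covariate, and ran from -1.49 (without control 1) to -0.97 (without control 3) with single arrays left out. Of the 19 member probe sets, 14 kept their sign in all alternatives, and SOD3, CAT and 3 of TXNRD2 did not. Several alternatives could not change a sign. Sex and replicate number are balanced between the groups, and the filter and the trended prior leave the differences as they are. Leaving out 1 array cannot change the sign where the groups do not overlap. The count of 14 is therefore no measure of stability by itself. Of the related genes, 0 probe sets passed the adjusted limma threshold in every alternative. At an unadjusted p under 0.05, their 19 higher and 14 lower probe sets became 34 and 27 with age, 10 and 39 with the trended prior, 6 lower with the filter on range, 4 lower after median centring, and 9 to 27 higher and 3 to 38 lower with single arrays left out. Among the fits without 1 array, the most lower ones, 38, came without control 2. Over all probe sets 1 was higher and 0 lower at the adjusted threshold. This was 6 higher with the filter, 3 with the trended prior, 0 after quantile normalization, with age and with the replicate block, and 0 to 3 higher and 0 to 2 lower with single arrays left out. At an unadjusted p, 1945 were higher and 2713 lower. With age these were 2919 and 9745, with the trended prior 794 and 12376, with the filter 771 lower, after median centring 1097 lower, and with single arrays left out 1097 to 3100 higher and 655 to 12212 lower, the most of these without control 2. The labels give no shared source for same-numbered arrays, whose deviations from the group means correlated at 0.27, 0.15 and 0.02, and the numbers were not taken as pairs. With 1 array of each group per number, the replicate block cannot change a difference, and the mean GPX3 difference stayed at -1.19. The block gave 28 higher and 10 lower related probe sets at an unadjusted p under 0.05. Causes of these shifts were not tested.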
